A study of Mus musculus with 58 samples.

Results

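The BMAL1 binding sites of a mouse fibroblast line were compared with those of mouse liver, peak by peak. BMAL1 (encoded by Arntl) was located by chromatin immunoprecipitation and sequencing, and the data were the authors' lists of called peaks in the mm9 build of the mouse genome. Every entry of the NIH3T3 list, which held 463 peaks, and of the liver list, which held 1254, was used. A peak was called shared where chromosome, start and end were identical in both lists, and otherwise NIH3T3-only or liver-only. These are 1717 of the 3172 entries in the 4 peak lists of the series, the other two of which held CLOCK peaks. Counting a shared peak once, they gave 1454 distinct regions, 263 shared, 200 NIH3T3-only and 991 liver-only.

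NIH3T3 is an established line of mouse embryonic fibroblasts, so all its libraries are from 1 cell line. Its clocks were synchronised with 100 nM dexamethasone, a synthetic glucocorticoid, for 30 min, and 7 of the 58 samples of the series were BMAL1 libraries taken 12, 18, 20, 22, 26, 30 and 38 h later. The labels attach all 7 to the same peak list, whose name gives 20 h alone, so the libraries on which its peaks were called are not clear. For liver, the authors processed anew the reads of an older study at zeitgeber time 6, that is 6 h after lights on, and the strain and age of its mice are not stated in the sources used here. Fibroblasts carried dexamethasone treatment and liver did not, liver is a mixture of cell types, and each context had 1 list. Cell type, treatment, time and peak calling therefore cannot be told apart in any difference between the lists. The lists held no height, score or value per library, so the depth behind a peak is unknown, replicate error could not be given, and the number of peaks is not a measure of the amount of binding. All intervals and tests describe counting error over peaks and nothing else, and peaks of the same promoter are not independent of each other.

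BMAL1 pairs with CLOCK through basic helix-loop-helix domains, and the pair binds the E-box, a short palindrome whose canonical form is CACGTG. It activates the Period (Per) and Cryptochrome (Cry) genes, whose proteins return to the nucleus to repress the pair, and the genes of the REV-ERB receptors, Nr1d1 and Nr1d2, whose proteins repress Arntl in turn. It also activates genes of output factors such as Dbp, through which the clock reaches tissue-specific programmes, in liver many of them metabolic.

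The E-box is shown first, because it is the sequence the protein pair recognises and because it was found beside peaks of each class. No peak sequence could be read, so the windows come from RefSeq promoters of the GRCm38.p6 build, written 5′ to 3′ on the strand of the gene with each CACGTG in capitals. They were chosen, after values had been seen, as genes with 1 RefSeq promoter and a peak within 25 bp of an E-box centre, and positions count from the RefSeq start site, negative upstream. The shared examples are Cry1, a core repressor; Gm129, now named Ciart, whose product CHRONO represses the BMAL1 pair; Cdk4, a cyclin-dependent kinase; and Klf11, a Krüppel-like factor. The NIH3T3-only examples are D2Wsu81e, now named Spout1; Rrn3, which encodes an initiation factor of RNA polymerase I; and Fkbp5, a co-chaperone of the glucocorticoid receptor. The liver-only examples are Max, the partner of MYC and itself an E-box binding protein; Plin2, a coat protein of lipid droplets; Fam50a; and Xpot, the exporter of transfer RNA from the nucleus.
Cry1 (chr10:85185082-85185141, minus strand): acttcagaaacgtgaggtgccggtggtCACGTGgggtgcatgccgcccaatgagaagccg
Gm129 (chr3:95882240-95882371, minus strand): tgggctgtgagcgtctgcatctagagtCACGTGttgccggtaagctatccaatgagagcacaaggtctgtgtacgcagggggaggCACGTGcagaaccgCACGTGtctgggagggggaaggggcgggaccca
Cdk4 (chr10:127063336-127063534, plus strand): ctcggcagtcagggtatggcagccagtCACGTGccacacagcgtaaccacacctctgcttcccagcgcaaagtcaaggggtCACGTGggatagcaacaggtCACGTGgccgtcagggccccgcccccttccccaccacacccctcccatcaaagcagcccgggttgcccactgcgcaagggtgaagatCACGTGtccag
Klf11 (chr12:24651130-24651189, plus strand): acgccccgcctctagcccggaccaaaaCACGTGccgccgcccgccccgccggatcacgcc
D2Wsu81e (chr2:30178534-30178593, minus strand): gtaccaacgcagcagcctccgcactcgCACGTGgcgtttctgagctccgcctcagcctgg
Rrn3 (chr16:13780624-13780683, plus strand): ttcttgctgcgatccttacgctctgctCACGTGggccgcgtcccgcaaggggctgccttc
Fkbp5 (chr17:28486286-28486345, minus strand): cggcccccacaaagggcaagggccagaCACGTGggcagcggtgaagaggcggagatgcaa
Max (chr12:76962234-76962263, minus strand): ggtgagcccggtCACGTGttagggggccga
Plin2 (chr4:86670046-86670075, minus strand): cagctgggctatCACGTGgctcggaggctt
Fam50a (chrX:74312938-74312997, plus strand): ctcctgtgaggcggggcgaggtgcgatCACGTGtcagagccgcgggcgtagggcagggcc
Xpot (chr10:121626531-121626582, minus strand): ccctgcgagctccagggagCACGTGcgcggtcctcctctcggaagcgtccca

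The values for these genes describe the choice, since a peak near a motif was required, and they name the peaks from 250 bp upstream to 50 bp downstream of the start alone. In that window the authors' distances for the shared Gm129 peaks were -30 and -104 bp, and the CACGTG motifs of its promoter began at -116, -58 and -44. Cdk4 carried 4 CACGTG motifs in the window, beginning at -172, -118, -98 and -11, and its shared peaks were given as -150 and -5 bp. These distances imply starts 68.5 bp apart, so they cannot both be set against the positions of the motifs. The single CACGTG printed for Cry1 began at -60, and the shared peaks in the window lay at -71 and 17 bp. Its printed sequence also holds, upstream of CACGTG, the variant AACGTG, which is counted below and was not marked here. In the NIH3T3-only class the motif of D2Wsu81e began at -107 with peaks at -104 and -50 bp, that of Rrn3 at -48 with a peak at -41 bp, and that of Fkbp5 at -169 with a peak at -160 bp. In the liver-only class the Max motif began at -3 and that of Plin2 at -4, across the start site itself, with peaks at -9 and -3 bp. The Fam50a motif began at -68 with peaks at -80 and 0 bp, and the Xpot motif at -231 with a peak at -220 bp.

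CACGTG, which reads the same on both strands, was frequent at promoters with a peak of any class. RefSeq promoters, from 250 bases before to 50 after a start site, were matched by gene for 841 of 1137 annotated genes. Among genes with a shared peak in that window, 62 of 92 (67.4%, 95% Clopper-Pearson interval 56.8 to 76.8) had CACGTG in a promoter. For NIH3T3-only peaks it was 40 of 57 genes (70.2%, 56.6 to 81.6) and for liver-only peaks 63 of 134 (47.0%, 38.3 to 55.8). Over all genes with a RefSeq promoter the share was 2187 of 27025 (8.09%). The liver-only interval lay below the NIH3T3-only and the shared interval without touching either, and no test between classes was made. A gene with peaks of several classes in that window entered each of them, so the groups can share genes.

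Genes whose peaks of a class all lay beyond 10 kb had the motif in their promoters in 1 of 9 genes for shared, 3 of 24 for NIH3T3-only and 12 of 179 (6.70%, 3.51 to 11.4) for liver-only peaks. The variant CACGTT, or AACGTG on the other strand, was present in 8 of 92 shared, 4 of 57 NIH3T3-only and 19 of 134 liver-only genes (8.70%, 7.02% and 14.2%), against 5.44% of all genes. A pair of these E-boxes, each canonical or variant, 6 or 7 bases apart was found in 0 shared, 0 NIH3T3-only and 1 liver-only gene, and in 6 of all 27025. The positions of peak and motif were compared where a gene had 1 RefSeq promoter and that promoter held CACGTG. Only peaks from 250 bp upstream to 50 bp downstream were used. Peak and motif then share a short window, so short distances follow in part from this choice, and no value for random positions was computed. The median distance from a peak to the centre of the nearest CACGTG was 20.5 bp for 61 shared, 18.5 bp for 33 NIH3T3-only and 30.5 bp for 49 liver-only peaks. Of these, 36 shared, 17 NIH3T3-only and 21 liver-only peaks lay within 25 bp of the motif (59.0%, 51.5% and 42.9%). RefSeq and the authors may place a start site differently, which would add to these distances.

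**Figure D1:**
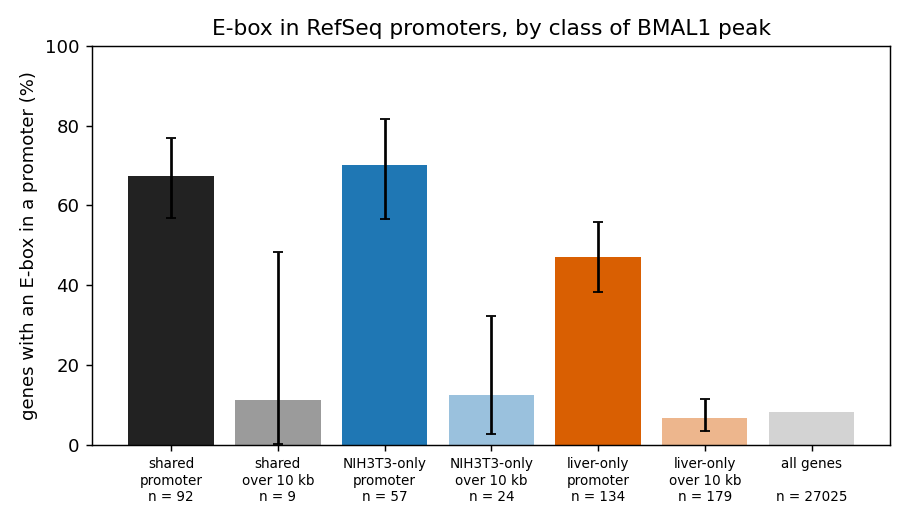
Share of genes (percent) with CACGTG in a RefSeq promoter, for genes with a peak from 250 bp upstream to 50 bp downstream of the start (promoter), for genes whose peaks of that class all lie over 10 kb away, and for all genes; error bars are 95% Clopper-Pearson intervals and n counts genes. The promoter bars stand at 67.4% for shared, 70.2% for NIH3T3-only and 47.0% for liver-only peaks, above 8.09% for all genes.

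The next comparison asked on which side of the start site the peaks lay. Shared peaks sat mainly upstream, 185 of 261 peaks with a side (70.9%, 65.0 to 76.3), NIH3T3-only peaks less so, 116 of 200 (58%, 50.8 to 64.9), and liver-only peaks were split evenly, 494 of 988 (50%, 46.8 to 53.2). A further 2 shared and 3 liver-only peaks were given the distance 0, among them liver-only peaks of Fam50a and Rab3il1 and a shared peak of 2610101N10Rik. A negative distance in the lists meant upstream. This was read from pairs of peaks of a gene over 200 bp apart whose distances and positions changed by like amounts. The distance grew along the chromosome at all 35 such genes on the plus strand and fell at all 36 on the minus strand. Where no strand was found, it grew at 26 genes and fell at 23. The start site that a distance refers to is not stated in the lists, and at 24 of 198 genes with more than 1 peak the distances imply starts over 1 kb apart. Acsl1, Cry2, Cubn, Dbp, Hlf, Osbpl1a, Pcx, Per1, Por and Ppara are among them, so their distances below are not on 1 scale. Smaller spreads of the implied starts were found at further genes, such as Bhlhe41 (255.5 bp), Hoga1 (182 bp), Nr1d1 (135 bp) and Nr1d2 (89 bp). Distances at these genes are not strictly on 1 scale either. The odds of lying upstream were 2.43 times as high for shared as for liver-only peaks (interval 1.80 to 3.32, two-sided Fisher exact test, adjusted p = 2.56e-09). They were 1.76 times as high for shared as for NIH3T3-only peaks (1.17 to 2.65, Fisher exact adjusted p = 0.00481). The step from NIH3T3-only to liver-only peaks was the smallest, with an odds ratio of 1.38 (1.005 to 1.90, Fisher exact adjusted p = 0.0436). All p-values were adjusted over 9 tests by the method of Benjamini and Hochberg.

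Divided by distance, the upstream side was the fuller one from 50 bp to 1 kb. Within 50 bp of the start site the sides were near balance in each class, with 36 of 65 shared, 22 of 40 NIH3T3-only and 41 of 83 liver-only peaks upstream. From 50 to 200 bp, 66 of 80 shared peaks were upstream (82.5%, 72.4 to 90.1). In the same band the count was 30 of 37 for the NIH3T3-only class (81.1%, 64.8 to 92.0) and 69 of 107 for the liver-only class (64.5%, 54.7 to 73.5). From 200 bp to 1 kb the shares were 80.8% of 73 shared, 77.1% of 35 NIH3T3-only and 59.9% of 147 liver-only peaks. Shared and NIH3T3-only peaks thus had like shares upstream inside 1 kb, 73.9% and 70.5%, an odds ratio of 1.18 (Fisher exact adjusted p = 0.517), which does not show that they are alike. Shared against liver-only peaks kept a difference there (odds ratio 1.98, Fisher exact adjusted p = 4.12e-04), as did NIH3T3-only against liver-only peaks (1.68, Fisher exact adjusted p = 0.0369).

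Beyond 1 kb no pair of classes differed in side past the threshold of 0.05. Liver-only peaks there lay slightly more often downstream, with 296 of 651 upstream (45.5%, 41.6 to 49.4), and NIH3T3-only peaks had 37 of 88 upstream, so their odds ratio turned to 0.870 (Fisher exact adjusted p = 0.570). Beyond 10 kb, 13 of 40 NIH3T3-only peaks (32.5%, 18.6 to 49.1) were upstream. Shared peaks had 24 of 43 upstream beyond 1 kb. Peaks of a class within 1 kb of each other were also joined, keeping from each group the peak nearest a start site. How far this choice of peak moved the side was not tested. With peaks joined, shared against liver-only peaks still differed (1.93, Fisher exact adjusted p = 1.30e-04). The other pairs then missed the threshold, at 1.49 for shared against NIH3T3-only (Fisher exact adjusted p = 0.0789) and 1.29 for NIH3T3-only against liver-only peaks (Fisher exact adjusted p = 0.125).

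**Figure D2:**
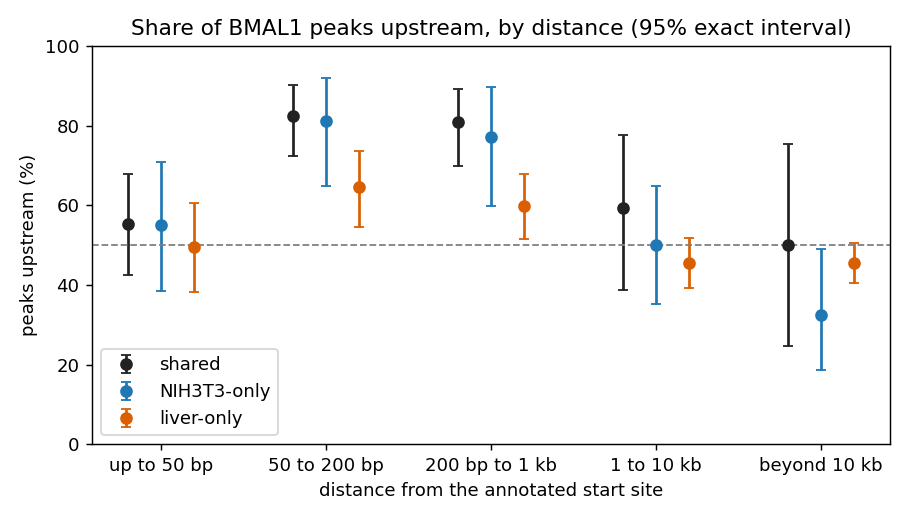
Share of peaks upstream (percent) by distance from the annotated start site, for shared, NIH3T3-only and liver-only peaks; points are shares, bars 95% Clopper-Pearson intervals and the dashed line marks equal sides. From 50 bp to 1 kb shared and NIH3T3-only peaks lie between 77.1% and 82.5%, liver-only peaks at 64.5% and 59.9%.

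The classes also differed in how far from a start site they lay. The median distance, without its sign, was 171 bp for shared, 492 bp for NIH3T3-only and 6004 bp for liver-only peaks. Within 1 kb lay 220 of 263 shared peaks (83.7%), 112 of 200 NIH3T3-only peaks (56%) and 340 of 991 liver-only peaks (34.3%). Each pair differed, with odds ratios of 9.78 for shared over liver-only (6.83 to 14.3, Fisher exact adjusted p = 2.30e-47) and 4.01 for shared over NIH3T3-only (2.56 to 6.34, Fisher exact adjusted p = 2.48e-10). NIH3T3-only over liver-only gave 2.44 (1.77 to 3.36, Fisher exact adjusted p = 2.47e-08). With sign, the quartiles stood at -286 and 12 bp for the shared class, at -367.5 and 1209 bp for the NIH3T3-only class and at -4060.5 and 7494.5 bp for the liver-only class. Beyond 10 kb lay 16 shared (6.08%), 40 NIH3T3-only (20%) and 389 liver-only peaks (39.3%).

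Single genes show what these distances look like. The liver-only peak of Plod2, a collagen lysyl hydroxylase, (chromosome 9, 93046735 to 93046784) was 556576 bp downstream of its annotated start, the farthest of all peaks. Tcf7l2, a transcription factor of Wnt signalling, had an NIH3T3-only peak 131057 bp downstream, and Lsm3 had the farthest shared peak, 83131 bp downstream. At the other end, the NIH3T3-only peak of Bop1, a ribosome biogenesis factor, lay at -3 bp, the shared peak of Lss, an enzyme of sterol synthesis, at 2 bp, and the liver-only peak of Lcp1, an actin-bundling protein, at -1 bp.

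**Figure D3:**
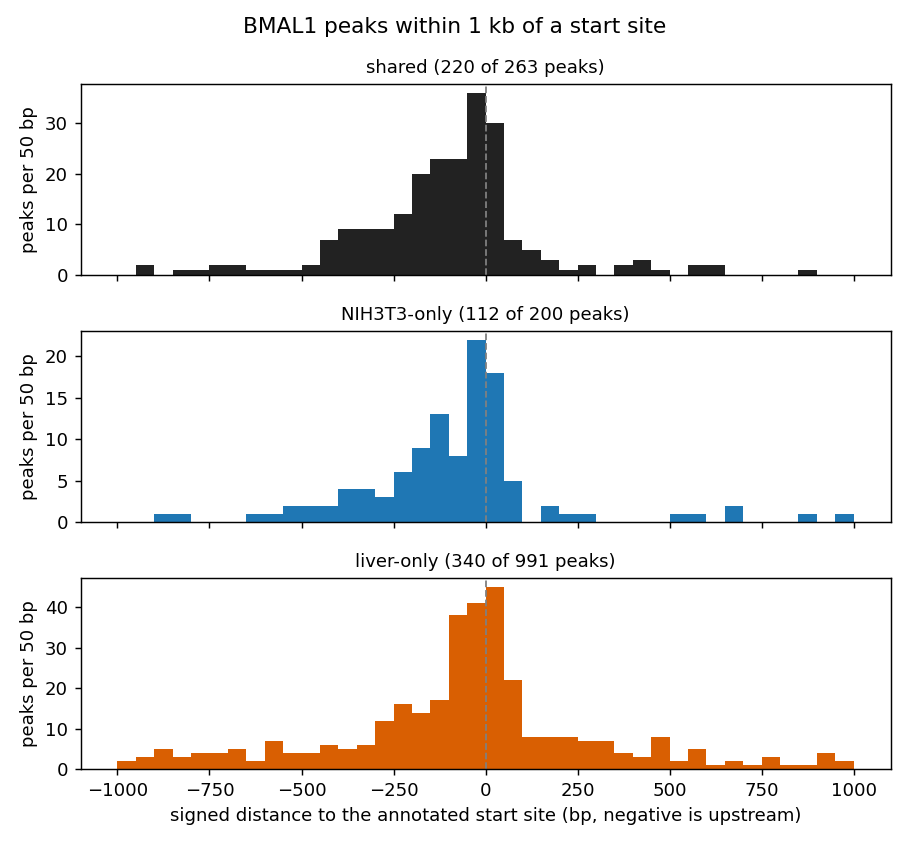
Number of peaks per 50 bp by signed distance to the annotated start site (bp, negative is upstream), for the 220 shared, 112 NIH3T3-only and 340 liver-only peaks within 1 kb. Shared and NIH3T3-only peaks have a longer shoulder on the upstream side, and liver-only peaks spread to both sides.

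Spacing was measured from centre to centre within each list. Shared peaks had close neighbours: 136 of 263 (51.7%) had another peak within 1 kb in the NIH3T3 list and 133 of 263 (50.6%) in the liver list. This held for 43 of 200 NIH3T3-only peaks (21.5%) and 119 of 991 liver-only peaks (12.0%). Shared peaks had odds 3.90 times those of NIH3T3-only peaks (2.54 to 6.07, Fisher exact adjusted p = 6.58e-11) and 7.48 times those of liver-only peaks (5.44 to 10.3, Fisher exact adjusted p = 2.87e-37). NIH3T3-only over liver-only peaks gave 2.01 (1.33 to 3.00, Fisher exact adjusted p = 8.36e-04), and among peaks farther than 1 kb from a start site 1.34 (Fisher exact adjusted p = 0.409). The median distance to the nearest other peak was 438 bp for shared peaks in either list, 789778 bp for NIH3T3-only and 209791 bp for liver-only peaks, and this distance depends on how many peaks a list holds.

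Neighbours were also counted by class. Of the shared peaks, 127 (48.3%) had another shared peak within 1 kb, 34 NIH3T3-only peaks (17%) had one of their class, and 109 liver-only peaks (11%) had one of theirs. Across classes, 15 NIH3T3-only and 12 liver-only peaks lay within 1 kb of a shared peak, and 3 NIH3T3-only peaks within 1 kb of a liver-only peak. No NIH3T3-only peak came within 500 bp of a liver-only peak, and the nearest pair, at Fkbp11, was 512.5 bp apart. The lists may not have been called independently, so this spacing may be set in part by how they were assembled.

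Between adjacent peaks of a class within 1 kb, short gaps were common. Of 71 gaps between shared peaks, 31 (43.7%) measured 50 to 100 bp and 25 measured 200 to 400 bp, with a median of 113 bp. The 15 NIH3T3-only gaps had a median of 78 bp, and 10 of them measured 50 to 100 bp. The 56 liver-only gaps had a median of 214.5 bp, with 15 of 50 to 100 bp (26.8%) and 22 of 200 to 400 bp. Because most intervals were 50 bp wide, separate peaks could hardly be closer than that, and 3 shared gaps under 50 bp came from overlapping entries, such as a pair at Cry2 and a pair at Abcf1 with 1 distance each. Width itself went with class: 135 shared peaks (51.3%), 29 NIH3T3-only peaks (14.5%) and 60 liver-only peaks (6.05%) were wider than 50 bp. Narrower than 50 bp were 6 shared peaks, among them entries of 12 and 6 bp at Nr1d1 and 5 bp at Dbp. The same held for 0 NIH3T3-only and 3 liver-only peaks. Apart from those overlapping shared entries, no interval of one list overlapped an interval of the other in part. Overlap by at least 1 bp thus gave the same 263 shared peaks. The first 263 entries of both lists were identical, which may set this count in advance. It is therefore no check of the rule for sharing. How interval edges were set is not stated in the sources used here.

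**Figure D4:**
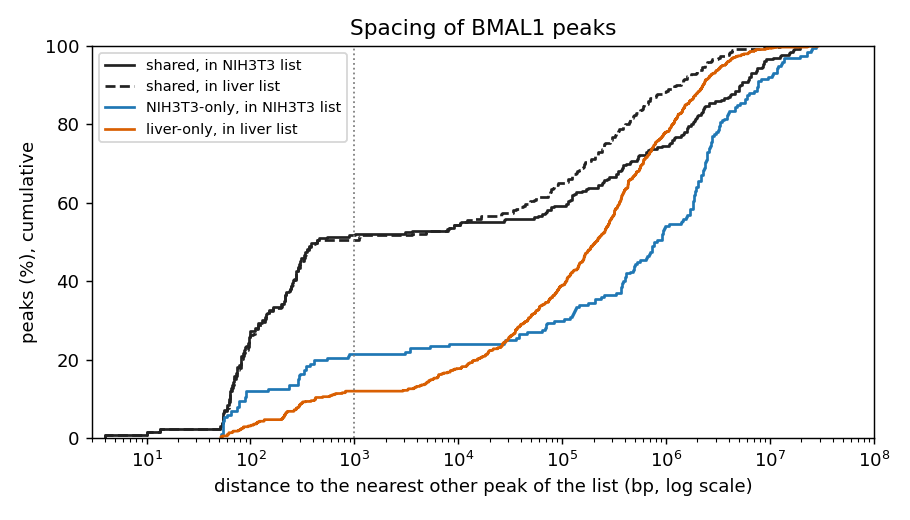
Cumulative share of peaks (percent) by distance to the nearest other peak of the same list (bp, log scale); the dotted line marks 1 kb. By 1 kb the shared curves have reached 51.7% and 50.6%, the NIH3T3-only curve 21.5% and the liver-only curve 12.0%.

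When peaks within 1 kb were joined, most loci held 1 class. There were 170 loci of shared peaks alone, 170 of NIH3T3-only and 923 of liver-only peaks. Of the shared loci 121 (71.2%) had a single peak, 39 had 2 and 10 had 3 or more, whereas 92.4% of NIH3T3-only and 94.4% of liver-only loci had a single peak. Classes met at 10 loci with shared and NIH3T3-only peaks, 10 with shared and liver-only peaks, 1 with NIH3T3-only and liver-only peaks (Fkbp11) and 1 with all 3 (Wee1).

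The largest group of shared peaks was at Srm, which encodes spermidine synthase. Its 6 peaks spanned 663 bp from first to last centre on chromosome 4, with outer edges at 147965448 and 147966160. Their distances were -140, -70, -191, -104, 9 and 108 bp, which refer to more than 1 annotated start. Tef, which encodes a bZIP factor that binds the D-box, had 4 shared peaks over 367 bp from first to last centre on chromosome 15, with outer edges at 81641371 and 81641787. Cry1 had shared peaks at 17, -71 and -344 bp, Gm129 at -30, -104 and -430 bp, and Per2, a Period repressor, at 11, -226 and -367 bp. None of these 5 genes had a peak of another class.

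NIH3T3-only peaks stood among shared peaks at several clock genes. Nr1d1 had shared peaks at 1392, 1025, 27 and -8107 bp and NIH3T3-only peaks at 2253, 199 and -297 bp, over 10453 bp of chromosome 11 from first to last centre, with outer edges at 98634276 and 98644778. The NIH3T3-only peaks lay 288 bp and 302 bp from the shared one near the start. At Dbp an NIH3T3-only peak at -265 bp (chromosome 7, 52960169 to 52960218) was 146.5 bp from the shared peak at -119 bp, which was 91.5 bp from another NIH3T3-only peak at -27 bp. The remaining shared Dbp peaks, at 447, -187 and -113 bp, refer in part to another start. Nr1d2 had a shared peak at 474 bp and an NIH3T3-only peak at 18 bp, and Bhlhe40, which encodes the repressor DEC1, a shared peak at -1129 bp and an NIH3T3-only peak at -242 bp. In both, the NIH3T3-only peak was nearer the start than the shared one. The same order was seen at Slc20a1, a phosphate transporter gene, with shared peaks at -443, -293 and -90 bp and the NIH3T3-only peak at -13 bp (chromosome 2, 129024463 to 129024512). At Brd2, a bromodomain protein gene, the order was the other way, with the shared peak at -91 bp and the NIH3T3-only peak at -386 bp.

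Liver-only peaks stood among shared peaks at other genes. Hdgf, a growth factor gene, had shared peaks at -291 and -209 bp and a liver-only peak given as -67 bp, 671.5 bp from the nearer of them, so the distances refer to different starts. Bmp2k, a kinase gene, had a liver-only peak at -430 bp, 106 bp from its shared peak at -324 bp, and Ppm1a, a phosphatase gene, one at -722 bp, 276.5 bp from the shared peak at -446 bp. Hoga1, an enzyme of hydroxyproline breakdown, had a shared peak given as -231 bp and a liver-only peak given as 9 bp. Their centres were 422 bp apart, so these distances too refer to different starts. The locus with all 3 classes was Wee1, the kinase that holds back entry into mitosis, over 651.5 bp of chromosome 7 from first to last centre, with outer edges at 117264857 and 117265580. From upstream to downstream it had a liver-only peak at -983 bp, shared peaks at -905 and -708 bp and an NIH3T3-only peak at -332 bp. Fkbp11, a prolyl isomerase of the secretory pathway, had NIH3T3-only peaks at 659 and 585 bp and a liver-only peak at 73 bp (chromosome 15, 98558522 to 98558592).

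**Figure D5:**
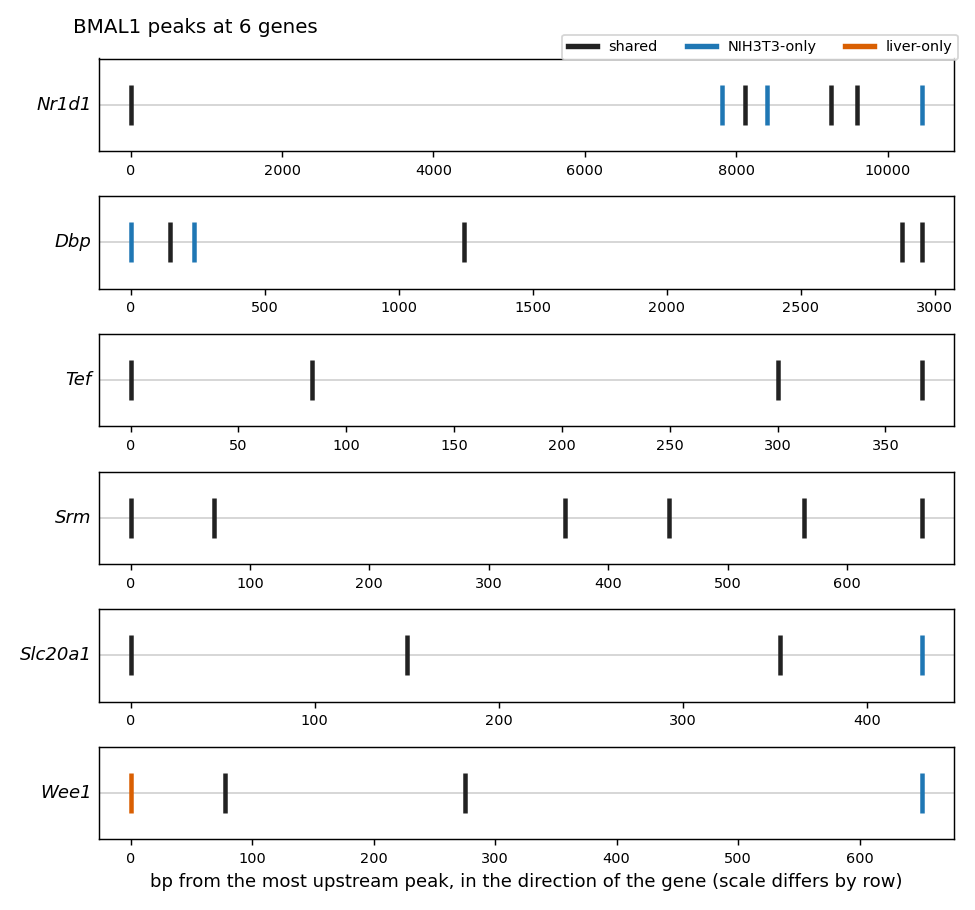
Position of each BMAL1 peak (bp from the most upstream peak, in the direction of the gene, each row on its own scale) at Nr1d1, Dbp, Tef, Srm, Slc20a1 and Wee1, coloured by class. Tef and Srm carry shared peaks alone, Nr1d1, Dbp and Slc20a1 shared and NIH3T3-only peaks, and Wee1 all 3 classes.

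Genes were then sorted by the classes of their peaks. Of 1137 annotated genes, 183 had at least 1 shared peak (16.1%), 175 an NIH3T3-only peak (15.4%) and 823 a liver-only peak (72.4%), and these shares are the background for the classes in the lists below. Of 21900 RefSeq protein-coding genes 967 (4.42%) had a BMAL1 peak in either list, the background for the number of list genes with any peak. The lists were drawn up with earlier results of these data known, so a share above it is no independent evidence. Most genes had peaks of 1 class: 792 of liver-only (69.7%), 152 of NIH3T3-only (13.4%) and 151 of shared peaks alone (13.3%). A further 19 had shared and liver-only peaks, 11 shared and NIH3T3-only peaks, 10 NIH3T3-only and liver-only peaks without a shared one, and 2, Wee1 and Hlf, all 3. More than 1 shared peak was found at 57 of 183 genes, more than 1 NIH3T3-only peak at 19 of 175 and more than 1 liver-only peak at 102 of 823.

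At 10 genes each list held a peak and none was shared. At Hes1, which encodes a transcriptional repressor induced by Notch signalling, the NIH3T3-only peaks were at -44 and 34 bp (chromosome 16, between 30064402 and 30064529). The liver-only peak of Hes1 was at -18659 bp. The reverse was seen at P2ry2, a nucleotide receptor gene, with the liver-only peak at 7 bp and the NIH3T3-only peak at 21410 bp. Trib1, a pseudokinase gene, had a liver-only peak at 4283 bp and an NIH3T3-only peak at 79831 bp, and Cubn, an endocytic receptor gene, an NIH3T3-only peak at 44767 bp and a liver-only peak at 7220 bp. Hlf, a bZIP factor that binds the D-box like Dbp and Tef, had a shared peak at -27255 bp, an NIH3T3-only one at -31 bp and 3 liver-only ones at 12075, 9142 and -598 bp, not all counted from the same start. The other genes with peaks in each list and none shared were Trim56, Gm12034, Fkbp11, Osbpl1a, Gm13834 and Lekr1.

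Clock genes were mostly in the shared class. Of the 26 genes of a core clock list 13 had a BMAL1 peak in either list, 10 of them a shared peak, and 3 a liver-only peak, read against 16.1% and 72.4% of all annotated genes. The 10 were the Period genes Per1, Per2 and Per3, Cry1 and Cry2, Nr1d1 and Nr1d2, Bhlhe40 and Bhlhe41, and Gm129. Nr1d1, Nr1d2 and Bhlhe40 also had NIH3T3-only peaks. Usp2, a deubiquitinase gene, had a liver-only peak at 1126 bp. Cry2 had shared peaks at -192 and, entered in overlap, 8513 bp, and Bhlhe41 at 9464, -832 and -1164 bp. Among bZIP output factors, 3 of 4 genes (Dbp, Hlf and Tef) carried a shared peak, and Nfil3, which encodes a D-box repressor, had liver-only peaks at 6205 and -87011 bp.

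Lists of cell growth genes were spread over the classes. In the cell cycle list 9 of 27 genes had a peak, 4 of them shared, 3 NIH3T3-only and 4 liver-only. Shared peaks lay at Cdk4, Wee1, Ccne2 (-112 and 103 bp) and, farther into the gene or beyond it, Ccne1 (14422 and 14147 bp), both of the latter encoding E-type cyclins. Bax, which promotes cell death, had an NIH3T3-only peak at 53 bp, and Gadd45g, a growth arrest gene, one at -88 bp. Ccnd1, which encodes cyclin D1, had its peak in the liver list alone, at -116643 bp. In the ribosome biogenesis list 5 of 28 genes had a peak: Bop1 (-3 bp) and Npm1 (985 and 696 bp) were NIH3T3-only, Gnl3 (57 bp) and Polr1b (-6350 bp) liver-only, and Ncl (647 bp), which encodes nucleolin, shared. Of the stress list 3 of 19 had a peak, and all 3 had an NIH3T3-only one, read against 15.4% of all annotated genes. They were Hspe1, a mitochondrial chaperonin gene, at 52 bp, Cirbp, a cold-inducible RNA-binding protein gene, at -5836 bp, and Trib1. Of these, Trib1 also had a liver-only peak.

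Metabolic genes had liver-only peaks in shares not far from the 72.4% of all annotated genes. In the lipid list 16 of 35 genes had a peak, 13 of them liver-only, 3 shared and 1 NIH3T3-only. The liver-only peaks of Ppara, the nuclear receptor that drives fatty acid oxidation, lay at -2961, -813 and 3156 bp (chromosome 15, between 85562428 and 85605825), counted from different starts, and those of Acsl1, which activates fatty acids, at -85966, -56081 and 7108 bp. Peaks close to the start were those of Elovl6 (7 bp), a fatty acid elongase, Plin2 (-3 bp) and Pnpla2 (-62 bp), the adipose triglyceride lipase. Fabp1, the liver fatty acid-binding protein, had a liver-only peak at -26924 bp. The shared genes were Elovl1 (30 bp), Angptl4 (382 bp), an inhibitor of lipoprotein lipase, and Dgat2 (-332 bp), the last step of triglyceride synthesis, which also had liver-only peaks at 14531 and 13885 bp. Lpin2, a phosphatidate phosphatase, had its NIH3T3-only peak at -40305 bp.

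In the glucose list 10 of 21 genes had a peak, 8 of them liver-only, 3 shared and 1 NIH3T3-only. Pfkl, the liver phosphofructokinase, had liver-only peaks at 454, 372 and 73 bp (chromosome 10, between 77472074 and 77472504), Gys2, the liver glycogen synthase, at 21407 and 1787 bp, and Slc2a2, the glucose transporter of hepatocytes, at 3769 bp. Pcx, pyruvate carboxylase, had shared peaks at -356 and -262 bp and a liver-only peak at -23307 bp, and Pfkfb3 a shared peak at -33419 bp and a liver-only one at -26 bp. Irs2, an adaptor of the insulin receptor, had the NIH3T3-only peak, at -506 bp, and Foxo3 a shared one at -1425 bp. In the list of xenobiotic, redox and bile export genes 6 of 23 had a peak, 5 of them liver-only, 1 NIH3T3-only (Gclc, -3730 bp) and 0 shared. Por, which passes electrons to cytochrome P450 enzymes, had liver-only peaks at 407, -364 and -7970 bp, counted from different starts.

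Of 26 other transcription factors 16 had a peak, 5 with a shared, 4 with an NIH3T3-only and 8 with a liver-only one. The shared peaks of Klf9 (-326 and -198 bp), Klf11 (-200 bp), Junb (-155 bp) and Hif1a (-171 bp), the oxygen-responsive factor, all lay upstream within 1 kb, and those of Tsc22d3, a glucocorticoid-induced gene, 31415 and 22275 bp downstream. Irf2bp2, a co-repressor, had liver-only peaks at 3084, -20816, -110452 and -142540 bp, and Mtss1, outside the lists, a liver-only group at 41166, 40949 and 40723 bp with another at -3390 bp. Peak lists cannot show which cells were present. Of 18 hepatocyte markers 4 had a peak: Arg1, Asgr2 and Upp2 a liver-only one and Krt8 an NIH3T3-only one. Of 20 genes in a fibroblast and mesenchyme list, not all particular to those cells, 5 had a peak. Of these 4 were liver-only (Actg1, Actn1, Cyr61 and Prrx1) and 1 NIH3T3-only (Tgfb2). Of 16 markers of non-parenchymal and blood cells 0 had a peak.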

How the data were processed

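The deposited BMAL1 lists gave chromosome, start, end, a gene name and, in bp, the signed distance the authors assigned to its start site. Bowtie, SAMtools and bedtools and the build mm9 are named, without roles or versions, per the submitters' processing notes. Which program called the peaks, with which thresholds, and how the lists were assembled is not stated in the sources used here. The first 263 entries of both lists were identical, with the same gene and distance, so the lists may not have been called independently and the classes may be set in part by that. Starts are printed counting from 1. A gene was missing for 1 shared, 5 NIH3T3-only and 49 liver-only peaks, and the genes of 1309 peaks found in a RefSeq table all lay on the peak's chromosome.

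Pairs of classes were tested by Fisher's exact test, two-sided, on counts of peaks (odds ratios are conditional estimates with exact 95% intervals), with Benjamini-Hochberg adjustment over 9 tests and a threshold of 0.05. Shares have Clopper-Pearson intervals. The counting was tested on simulated lists. Neighbours and joined peaks lay within 1 kb, centre to centre, and promoter peaks within 1 kb of a start. The rule for named genes took the members of the gene lists that had a peak, the genes with most peaks in each class, those with peaks of all 3 classes or in both lists without a shared peak, the nearest and farthest peaks, and pairs of close peaks of different classes. Rrn3, Fkbp5 and Xpot, shown for their sequence, fall outside it. Members, lists and tests were chosen with earlier results of these data known. A few genes covered by the rule are not reported here by name. The CLOCK lists were used to count peaks only, and other libraries were not used here. Alternatives were other definitions of sharing, promoter and neighbour windows, joined peaks, peaks inside or outside 1 kb, clock genes left out, and, chosen after seeing the data, overlapping entries left out, neighbours inside or outside 1 kb, and first RefSeq promoters alone. SciPy 1.17.1 ran the tests and matplotlib 3.10.9 drew the plots, under Python 3.11.15 with pandas 2.3.3 and NumPy 2.4.6.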

Additional observations from a re-analysis of the deposited data

How the results depend on the processing

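Of 54 odds ratios under alternative settings 46 kept their direction and their side of the threshold, 7 no longer passed it and 1 reversed. Those for promoter position all held, from 2.02 to 10.95, as did those for neighbours of shared peaks, from 2.55 to 9.26. For NIH3T3-only over liver-only neighbours, peaks farther than 1 kb from a start gave 1.34 (Fisher exact adjusted p = 0.409). Neighbours within 10 kb gave 1.46 (0.994 to 2.125, Fisher exact adjusted p = 0.0469), counted as kept though the interval reached below 1. Side was less stable. For NIH3T3-only over liver-only peaks it was 1.36 with centres within 500 bp called shared (Fisher exact adjusted p = 0.0568), 1.29 with peaks joined (0.125) and 0.870 beyond 1 kb, which reversed (0.570). Leaving out clock genes gave 1.37 for this pair (0.993 to 1.90, Fisher exact adjusted p = 0.0486), again counted as kept with an interval reaching below 1. For shared over NIH3T3-only peaks it was 1.18 within 1 kb (0.517), 1.73 beyond it (0.234) and 1.49 joined (0.0789). For shared over liver-only peaks it was 1.51 beyond 1 kb (0.234). Counting genes within 10 kb alone left 530 of 823 genes with a liver-only peak. Centres within 500 bp gave 274 NIH3T3 and 273 liver peaks as shared, against 263. The first RefSeq promoter alone gave CACGTG in 63.0% of shared, 68.4% of NIH3T3-only and 44.0% of liver-only genes.

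No paired analysis was possible because each context had a single peak list with no value per library. Leaving out each library in turn was not run for the same reason. Depth is unknown, and whether a peak missing from a list was bound more weakly was not tested.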
